A study of Homo sapiens with 7 samples.

Results

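The regions described here are sites of MYC binding, found in both MYC libraries of the series, whose centre lay outside every protein-coding gene and more than 50 kb from the nearest end of any such gene. Merging every replicate 1 peak with the replicate 2 peaks that shared a base with it gave 24855 regions, of which 6313 held a peak in both libraries. Of these 6313 reproducible regions, 716 met the distance rule (11.3%, exact Clopper-Pearson 95% interval 10.6 to 12.1%). The distance rule used position alone and no tag count. It counts protein-coding genes only, so the regions are far from protein-coding genes but seldom far from every annotated gene: 280 of them lay inside an annotated long non-coding RNA (lncRNA) gene, and 83 lay more than 50 kb from genes of all types.

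The cells were DLD-1, an established human colon adenocarcinoma line, carrying a retrovirally delivered MycER, which is MYC fused to an estrogen receptor domain that 4-hydroxytamoxifen switches on. In MYC-activated cells (8 hr of 4-hydroxytamoxifen at 500 nM), chromatin immunoprecipitation followed by sequencing gave 2 ATF4 and 2 MYC libraries, and in control cells (8 hr of vehicle) it gave 2 ATF4 libraries. All of these cells carried MycER, and no group had the inducer without MycER. None of the samples was a MYC library of control cells, so the MYC regions describe activated cells and no change of MYC. The labels do not say whether replicates were separate cultures, so the spread between libraries may be technical. A further sample was an IgG immunoprecipitation with no list used here. The MYC lists held 8636 peaks from 21.04 M tags in replicate 1 and 22532 peaks from 50.11 M tags in replicate 2, and peak windows were 148 and 176 bp wide. Values below are the authors' normalized tag counts per 10 M tags, called tags, on hg38 coordinates. The shallower library gives 2.10 reads per tag and the deeper 5.01, and the weakest listed peaks had 3.8 tags (8 reads) and 2.39 tags (12 reads).

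MYC is a growth-promoting transcription factor that binds DNA as a dimer with MAX and prefers the E-box CACGTG. Its best known sites are promoters, but it also binds at distal elements, among them enhancers and the promoters of non-coding RNAs. Long non-coding RNAs are transcripts without a known protein product, and microRNAs are short RNAs, cut from hairpins, that repress messenger RNAs through their seed bases. The miR-17-92 cluster is a textbook MYC target, and the let-7 and miR-29 families are known as growth-restraining microRNAs that MYC can repress. ATF4 is the main transcription factor of the integrated stress response.

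Promoter windows are shown first because they are the far regions whose DNA the sources hold. RefSeq promoter windows of 300 bases (250 before and 50 after a start, GRCh38.p14) matched 11462 of 18330 annotated lncRNA genes. They could be compared with 641 of the 716 far regions, of which 17 overlapped 18 lncRNA promoter windows. The E-box CACGTG, a palindrome that reads alike on both strands, stood in 6 of the 18 windows (33.3%), at 5 regions. It stood in 5.40% of all 12917 lncRNA windows and in 24.9% of the 213 windows that any reproducible MYC region overlapped. The variant CACGCG, searched on both strands, stood in 2 of the 18 windows and in 6.58% of all windows. These shares are descriptions with no test. A MYC region covered the E-box in 5 of the 6 windows. The windows of the 3 strongest such regions are shown in full, with the E-box in capitals and the rest in lower case. The LINC00513 window lies at chr7:130913214-130913513 on the plus strand, the LINC02971 window at chr1:234956949-234957248 on the plus strand, and the LOC124900877 window at chr4:186840769-186841068 on the minus strand.
LINC00513: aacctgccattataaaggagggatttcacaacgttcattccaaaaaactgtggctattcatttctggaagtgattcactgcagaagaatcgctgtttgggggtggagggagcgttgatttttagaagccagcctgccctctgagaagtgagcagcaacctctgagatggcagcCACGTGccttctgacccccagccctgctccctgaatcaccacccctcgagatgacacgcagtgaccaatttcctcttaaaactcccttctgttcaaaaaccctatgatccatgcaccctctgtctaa
LINC02971: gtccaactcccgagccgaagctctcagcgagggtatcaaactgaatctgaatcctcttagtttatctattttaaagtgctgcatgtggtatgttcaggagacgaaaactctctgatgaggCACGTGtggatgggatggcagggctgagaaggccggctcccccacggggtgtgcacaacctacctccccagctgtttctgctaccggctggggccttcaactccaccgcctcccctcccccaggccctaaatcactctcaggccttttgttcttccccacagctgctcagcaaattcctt
LOC124900877: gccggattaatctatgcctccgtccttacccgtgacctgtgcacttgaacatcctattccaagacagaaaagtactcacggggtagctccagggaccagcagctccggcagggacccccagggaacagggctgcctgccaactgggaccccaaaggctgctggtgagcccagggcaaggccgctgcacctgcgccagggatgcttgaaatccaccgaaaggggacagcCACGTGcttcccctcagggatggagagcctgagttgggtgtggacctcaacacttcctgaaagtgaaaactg

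The E-box began 77 bases before the annotated start in LINC00513, 130 before it in LINC02971 and 22 before it in LOC124900877. The region at LINC00513 (chr7:130913305-130913481) had 13.3 and 26.1 MYC tags in replicates 1 and 2. At the LINC02971 region (chr1:234957015-234957191) the values were 10.5 and 13.6 tags, and at the LOC124900877 region (chr4:186840723-186840899) 6.65 and 10.6 tags. Each of the 3 was higher in replicate 2, as were 79.9% of all far regions. The LINC00513 window overlaps, on the other strand, a promoter window of LINC-PINT, which holds the same E-box. The remaining windows with an E-box belonged to LOC124900848 (4.28 and 5.99 tags) and LOC124901072 (4.75 and 5.39 tags), both near the weakest listed peaks of replicate 1. In the LOC124901072 window the E-box lay outside the MYC region.

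Some far regions lay near microRNA genes. Of the 641 regions with hairpins to compare, 22 lay within 20 kb of a microRNA hairpin. The share of far territory this close to a hairpin was not counted, and some of these regions lay beside the same hairpin. The count is thus a description only. The following families, chosen after their values were seen, are shown because their regulation by MYC is well studied. Mature sequences (RefSeq, GRCh38.p14) are grouped by seed, with bases 2 to 8 in capitals. In the miR-17-92 cluster, miR-17-5p and miR-20a-5p share a seed, miR-19a-3p and miR-19b-3p share another, and miR-18a-5p and miR-92a-3p have their own. The miR-29 members share a seed, as do the 3 let-7 members.
miR-17-5p: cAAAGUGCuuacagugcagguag
miR-20a-5p: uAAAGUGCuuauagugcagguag
miR-18a-5p: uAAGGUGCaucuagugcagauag
miR-19a-3p: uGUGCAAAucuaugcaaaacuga
miR-19b-3p: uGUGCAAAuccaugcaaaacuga
miR-92a-3p: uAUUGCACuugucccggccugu
miR-29a-3p: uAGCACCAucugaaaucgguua
miR-29b-3p: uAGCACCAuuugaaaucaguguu
let-7a-5p: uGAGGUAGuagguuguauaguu
let-7f-5p: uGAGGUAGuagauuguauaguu
let-7d-5p: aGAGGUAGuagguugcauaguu

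The region at the miR-17-92 cluster (chr13:91346956-91347203) lay 608 bp from the annotated start of the host gene MIR17HG, 3567 bp from the miR-17 hairpin and 51542 bp from GPC5, the nearest protein-coding gene. It had 8.08 and 10.2 MYC tags in replicates 1 and 2. A stronger reproducible region beside it (chr13:91349150-91349326), 1551 bp from the same start, had 25.2 and 29.5 tags. That region lay 49383 bp from GPC5 and so fell just short of the distance rule, which splits this locus. The let-7 region (chr9:94165717-94165893) had 6.18 and 8.38 tags, 10192 bp from the let-7a-1 hairpin, at the start of the host gene MIRLET7A1HG. The region nearest to the miR-29 hairpins (chr7:130884577-130884753) had 6.18 and 9.58 tags and lay 7166 bp from miR-29b-1 and 7886 bp from miR-29a, at the edge of the largest group of far regions.

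Far regions were sparse for the space they occupy. The territory more than 50 kb from a protein-coding gene covered 1182 Mb, 38.8% of the 3050 Mb between the first and last protein-coding gene of each chromosome (stretches of unsequenced DNA included), and held 0.606 reproducible MYC regions per Mb, against 3.0 per Mb elsewhere (ratio 0.202). Among the other 5597 reproducible regions, 1756 lay within 1 kb of a protein-coding gene end, 2527 inside a gene body and 1314 between genes within 50 kb. The median distance of a far region to a gene end was 113895 bp, with quartiles of 75800 and 184384 bp. Most of them lay towards the near limit, with 297 (41.5%) at 50 to 100 kb, 256 at 100 to 200 kb, 130 at 200 to 500 kb and 33 beyond 500 kb. Median tags over these 4 distance classes were 6.18, 6.18, 5.7 and 5.7 in replicate 1 and 8.58, 8.08, 7.58 and 6.99 in replicate 2. The medians in replicate 2 decreased with distance. These are medians over regions of 1 library each, with no test.

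Among regions found in both libraries, the far ones were nearly as strong as those at genes, and somewhat weaker than those at gene ends. Regions found in 1 library are left out of this comparison. That removes more far regions, since 58.4% of them recurred from replicate 1, against 83.3% at gene ends. Tags of the far regions spanned 3.8 to 25.2 in replicate 1, with a median of 6.18 and quartiles of 5.23 and 7.61. In replicate 2 they spanned 2.99 to 34.5, with a median of 8.18 and quartiles of 5.99 and 11.25. Regions at gene ends had medians of 6.18 and 9.78 tags, gene body regions 6.18 and 8.78, and near intergenic regions 6.18 and 8.58. The ratio of the far median to the gene-end median was 1 in replicate 1 and 0.836 in replicate 2. The replicate 1 medians are tied on a single step of read counts, and other summaries of that library were lower at far regions: the third quartile was 7.61 tags at far regions and 8.08 at gene ends, and the ratio of medians was 0.922 without chromosome 8. The authors' fold over the background library had medians of 10.7 and 11.7 at far regions and 9.6 and 13 at gene ends. The fold over the surrounding DNA was 8.00 and 8.06 at far regions and 8.56 and 10.0 at gene ends.

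**Figure D1:**
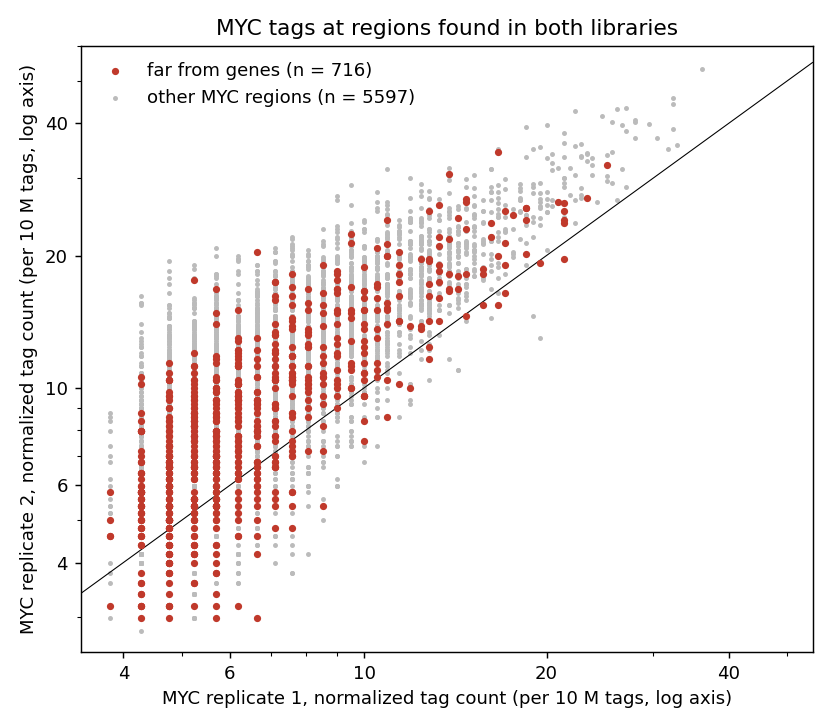
MYC normalized tag counts (per 10 M tags, log axes) of each reproducible region in replicate 1 (horizontal) and replicate 2 (vertical), with the 716 far regions in red over the 5597 other regions in grey and a line of equal tags. Far regions span most of the range of the others, and 572 of 716 have more tags in replicate 2.

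Of the 716 far regions, 572 (79.9%) had more tags in replicate 2 than in replicate 1, against 89.4% of regions at gene ends, 83.6% in gene bodies and 79.9% of near intergenic regions. Tags of the 2 libraries were correlated across the far regions (Spearman rho 0.742 over 716 regions, which share libraries and are no replicates), much as across gene-end regions (rho 0.715). Recurrence differed more. Of 1226 replicate 1 regions at far positions, 716 had a replicate 2 peak (58.4%, interval 55.6 to 61.2%), against 83.3% at gene ends (81.6 to 84.9%), 72.4% in gene bodies and 72.5% of near intergenic regions. Without chromosome 8 the shares were 62.4% at far positions and 83.7% at gene ends. Seen from the deeper library, 25.5% of 2812 far peaks recurred in replicate 1, against 28.1% at gene ends. Intervals cover counting error only, and no test over libraries is possible with 2 of them.

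**Figure D2:**
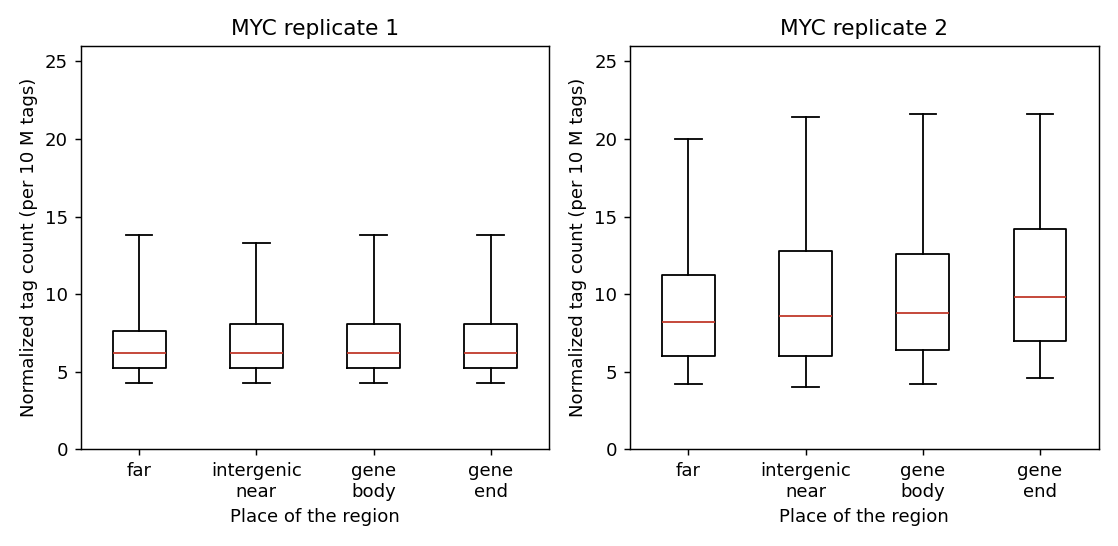
MYC normalized tag counts (per 10 M tags) by position of the region, in replicate 1 (left) and replicate 2 (right). Boxes span the quartiles with the median in red, and whiskers the 5th to 95th percentile; medians are equal at 6.18 tags in replicate 1 and range from 8.18 (far) to 9.78 (gene end) in replicate 2.

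The 10 strongest far regions by mean rank over both libraries had 16.6 to 25.2 tags in replicate 1 and 23.7 to 34.5 in replicate 2. First was chr2:234258237-234258434, with 25.2 and 32.1 tags, 181202 bp from SPP2, a secreted bone matrix protein. The next, chr8:121348715-121348906, had 23.3 and 27.1 tags and lay 263306 bp from HAS2, a hyaluronan synthase. At chr11:62044614-62044790, 77068 bp from FTH1, the ferritin heavy chain that stores iron, the values were 21.4 and 26.3 tags. A region 80127 bp from B3GNT2, a glycosyltransferase (chr2:62304770-62304946), had 20.9 and 26.5 tags. These values lie in the upper tail of the far regions, of which 8 had at least 20 tags in replicate 1 and 37 in replicate 2. The region chr1:221839827-221840003 had 21.4 and 25.3 tags, 97826 bp from DUSP10, a phosphatase of stress kinases, and 751 bp from the start of LINC01655. The replicate 2 maximum of 34.5 tags, beside 16.6 in replicate 1, lay 55248 bp from LOXL4, a lysyl oxidase (chr10:98323354-98323530), at folds of 74.1 and 149 over background.

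The other four of these strongest regions had similar values. Tags of 18.5 and 25.7 were listed both 68948 bp from SLC24A4, a cation exchanger (chr14:92253545-92253722), and 80226 bp from MIER3 (chr5:57032343-57032527). A region 157090 bp from SLC1A4, a neutral amino acid carrier (chr2:64831299-64831480), had 21.4 and 24.1 tags. The last, 139152 bp from SLC30A10, a manganese exporter (chr1:219771201-219771385), had 21.4 and 23.7 tags and lay inside the lncRNA gene LOC105372926. All 10 were higher in replicate 2 than in replicate 1, as were 79.9% of all far regions.

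The 5 regions farthest from a protein-coding gene ranked between 130 and 711 of 716 by strength, so they included weak ones. At 1978880 bp, chr20:28834440-28834663 had 4.28 and 3.39 tags at folds of only 2.32 and 2.10 over background. At 1411530 bp from UQCRFS1, a subunit of respiratory complex III, chr19:27793689-27793888 had 8.08 and 13.6 tags and lay inside LINC00662 and 106 bp from the start of LINC02987. A region 1009520 bp from CTNNA2, a neuronal catenin (chr2:81658206-81658397), had 5.23 and 4.19 tags. The fourth, chr8:128556775-128556951, had 7.61 and 6.99 tags inside LINC00824, 813912 bp from MYC itself. The fifth, chr3:6066492-6066707, had 7.61 and 11.2 tags, 794516 bp from GRM7, a glutamate receptor, and 364 bp from the start of LOC105376942. The chromosome 19 and chromosome 3 regions were thus within 1 kb of an annotated lncRNA start.

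The 50 kb limit cut through a continuous range. Just inside it, the region 50090 bp from RB1CC1, an autophagy factor (chr8:52764437-52764613), had 11.4 and 18.2 tags, that 50094 bp from GTF3A, a ribosomal RNA gene factor (chr13:27374418-27374633), 4.75 and 6.99, and that 50240 bp from ANAPC13 (chr3:134427376-134427552), a subunit of the anaphase-promoting complex, 4.75 and 6.39. Just outside it, the region 49928 bp from C8orf89 (chr8:73191286-73191521) had 6.65 and 8.58 tags, that 49723 bp from SLC2A1, a glucose carrier (chr1:43008499-43008683), 8.56 and 12, and that 49714 bp from LOC124903211 (chr13:109840609-109840810) 5.7 and 4.19. Values on both sides overlapped.

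A few listed far regions barely exceeded the background library. In 73 of the 716 the authors' fold was under 4 in at least 1 library, and in 2 it was under 2. Those 2 were chr16:34594541-34594717, with 16.6 and 15.4 tags but folds of 1.44 and 1.3, and chr6:28729245-28729437, with 6.18 and 5.59 tags at folds of 1.91 and 1.86, inside an alanine transfer RNA gene. At the other end, 313 regions had a fold of at least 10 in both libraries. High folds here and below can rest on a nearly empty background window. The region chr1:30069143-30069319 had only 6.65 tags in replicate 1 but a fold of 57.6, at a background value of 0.2.

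Annotated non-coding genes covered a large part of the far regions. Of the 716, 280 (39.1%, interval 35.5 to 42.8%) lay inside an lncRNA gene, whereas such genes cover 21.2% of the far territory. A further 13 lay only in other non-coding genes or pseudogenes, and 423 lay in no annotated gene. Windows, lncRNA starts and microRNA hairpins on chromosome 8 were not used here, so its 75 far regions were not compared with them. Of the remaining 641, 43 (6.71%, interval 4.90 to 8.93%) lay within 1 kb of a start, a zone of 0.656% of the far territory. Within 500 bp of a start there were 34. Median tags were 6.65 and 9.38 at the 43 regions, against 5.7 and 7.98 at the other 598. These shares carry no test, since neighbouring regions and overlapping lncRNA genes are not independent.

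By the same rank, the strongest regions at lncRNA starts began with LINC01655, already described. LOC105379013 had 19.5 and 19.2 tags in replicates 1 and 2 at a region 270 bp from its start (chr5:68434062-68434256). This region lay 132338 bp from PIK3R1, the regulatory subunit of PI3 kinase. The LINC00513 and LINC-PINT promoter had 13.3 and 26.1 tags, and LINC02313 had 13.8 and 21.8 tags at chr14:31944247-31944439. LOC105373414 followed with 11.4 and 19 tags (chr2:9103306-9103515) and LOC107986854 with 11.9 and 13.8 (chr7:140231820-140232024). LINC02595 had 10.9 and 21.2 tags and LINC01101 12.8 and 12.4. LINC02971, whose promoter is shown above, had 10.5 and 13.6, and LINC02942 had 8.08 and 15 tags at a region 760 bp from its start (chr1:207240770-207240975). Replicate 2 was the higher library at all of these starts except LOC105379013 and LINC01101. LUCAT1, an lncRNA known from stress and lung cancer studies, had a weak region in its promoter window (4.75 and 6.19 tags) and was chosen after its values were seen.

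Far regions often came in groups. With gaps of up to 50 kb, the 716 regions formed 547 groups, of which 436 were single regions, 81 held 2 regions and 30 held 3 or more. In all, 280 regions (in 111 groups) had a neighbour within 50 kb. The largest group held 13 regions over 128.9 kb (chr7:130884577-131013492), all inside LINC-PINT, an lncRNA known as a p53-induced transcript. Their tags spanned 5.7 to 17.6 in replicate 1 and 6.39 to 26.1 in replicate 2. Of the 13, 12 were higher in replicate 2, as were 79.9% of all far regions. Every one exceeded the background library at least 5.76-fold in replicate 1 and 6.91-fold in replicate 2. The strongest were chr7:130897098-130897291 with 17.6 and 24.7 tags and the E-box promoter of LINC00513 with 13.3 and 26.1, at folds of 115 and 226 over background. The nearest protein-coding genes were KLF14, a zinc-finger transcription factor, for 8 of them and MKLN1, the intracellular protein muskelin, for 5.

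**Figure D3:**
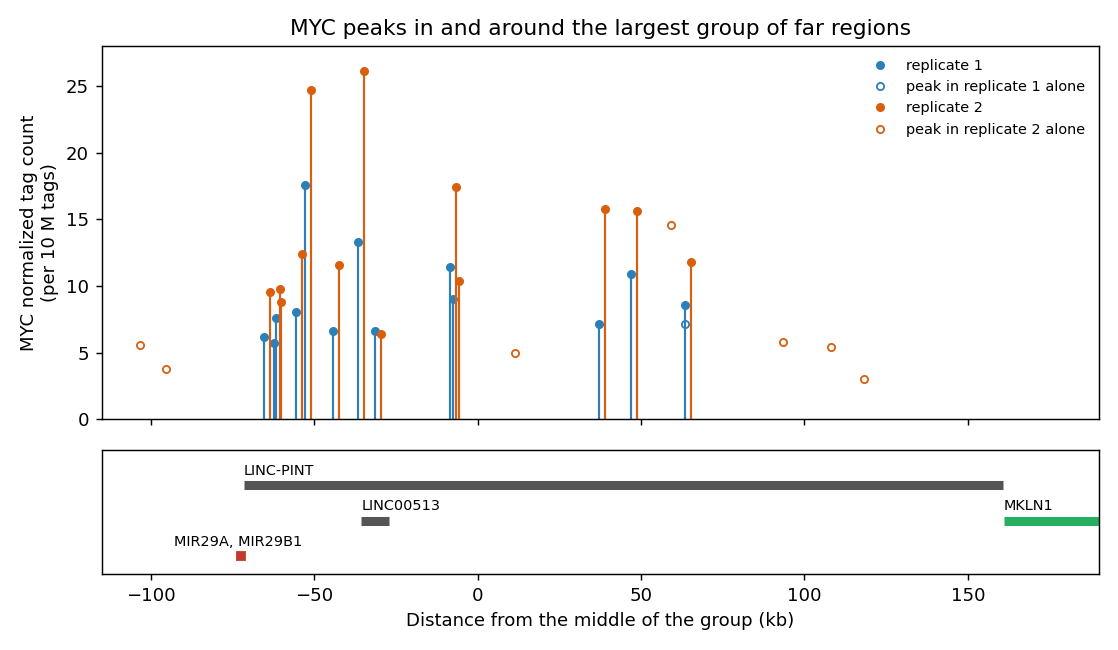
MYC normalized tag counts (per 10 M tags) of peaks in and around the largest group of far regions, against distance from the middle of the group (kb), with replicate 1 in blue and replicate 2 in orange, set slightly apart at each region. Filled points with stems are the 13 regions found in both libraries, open points are peaks of 1 library, and bars below show the annotated genes; all 13 regions lie inside LINC-PINT.

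The next groups were smaller. The 6 regions at chr3:193782373-193886058, near OPA1, a mitochondrial fusion protein, were weak, with 4.75 to 6.18 tags in replicate 1 and 4.39 to 11.8 in replicate 2. Near SLC30A10, 5 regions at chr1:219757887-219794673, all inside LOC105372926, had 7.61 to 21.4 and 9.78 to 23.7 tags. Near SLC45A1, a sugar carrier, 5 regions at chr1:8182119-8239862 had 4.75 to 14.7 and 4.59 to 23.0 tags. The 5 regions at chr7:155166867-155234157, between INSIG1, a regulator of sterol synthesis, and the serotonin receptor gene HTR5A, had 4.75 to 8.08 and 6.39 to 13.4 tags. At chr2:240234327-240320066, near GPC1, a proteoglycan, and OTOS, 5 regions had 4.28 to 9.51 and 3.39 to 9.98 tags. Of these 5 groups, those near SLC30A10 and SLC45A1 held regions above 20 tags in replicate 2, as the LINC-PINT group did.

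Far regions were denser on some chromosomes. Chromosome 8 held 75 of them, at 1.28 per Mb of far territory, followed by chromosome 2 with 90 at 0.958 and chromosome 7 with 48 at 0.926. The lowest autosomes were 21 at 0.233 and 19 at 0.255 per Mb, but these densities rest on only 6 and 2 far regions. Chromosome 8 held 10.5% of the far regions but 5.86% of all reproducible regions and 4.96% of the far territory. The libraries also differed there: it held 8.73% of all MYC peaks in replicate 1 and 4.24% in replicate 2. ATF4 lists showed the same split, with 19.3% of peaks in activated replicate 1 and 6.90% in activated replicate 2, beside 24.1% in control replicate 1 and 7.92% in control replicate 2. At far regions of chromosome 8 the background library had medians of 1.9 and 5.0 reads per window in the replicate 1 and 2 lists. Each list is on its own scale, not per 10 M tags. In the replicate 1 list this was at the top of the 0.75 to 1.9 of the other autosomes, level with chromosome 22. In the replicate 2 list it was above their 3 to 4. The part of this local signal in the number of far regions there was not tested.

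**Figure D4:**
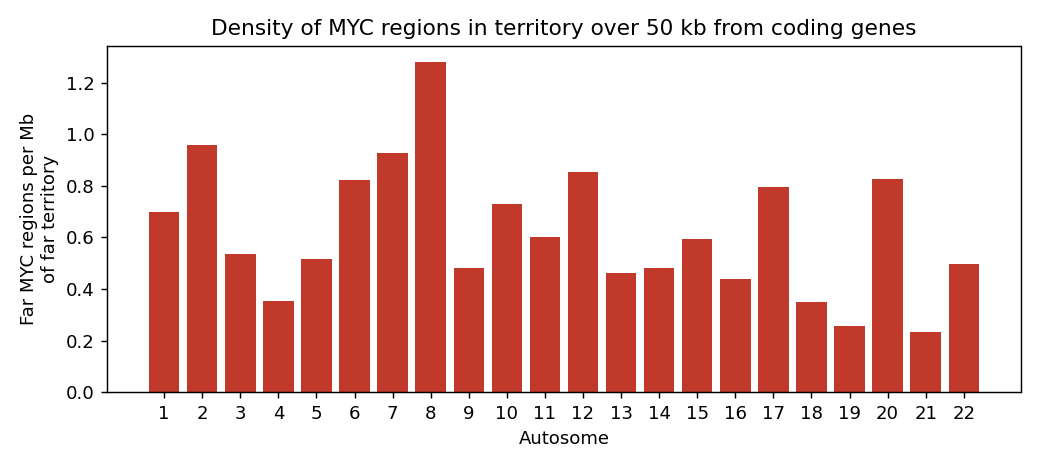
Number of far MYC regions per Mb of territory more than 50 kb from protein-coding genes, for each autosome. Chromosome 8 is highest at 1.28 per Mb, and chromosomes 21 and 19 are lowest at 0.233 and 0.255, with only 6 and 2 far regions.

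The 716 regions had 479 different nearest protein-coding genes, which is 10.1% of the 4753 genes that border far territory. Lists of nearest genes are described by counts alone, with no test. They were chosen with earlier results of these data known. The shares do not allow for how much far territory each gene borders, so differences between lists are not read as targeting. Of 23 bordering transcription factors of colon epithelium, 7 (30.4%) had a far MYC region nearest to them, 15 regions in all with medians of 6.65 and 10.8 tags. ID2, an inhibitor of helix-loop-helix factors, had 5, among them chr2:8312935-8313111 inside LINC00299 with 21.4 and 19.6 tags, chr2:8609576-8609752 with 14.7 and 14.6, and chr2:8525704-8525915 with 7.61 and 18.2. FOXQ1, a forkhead factor, had 9.03 and 14.0 tags at chr6:1201985-1202161. KLF4, a differentiation factor of gut epithelium, had 4 regions, and SOX9, KLF5, FOXA2 and GRHL2 had 1 each.

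Of 21 bordering Wnt pathway genes, 6 (28.6%) had a far region nearest to them, with 13 regions and medians of 5.7 and 6.59 tags. CTNNB1, which encodes beta-catenin, had 13.3 and 19 tags at chr3:40971282-40971458 and 7.61 and 17 at chr3:41117564-41117765. AXIN2, a feedback inhibitor of the pathway, had 9.51 and 12.8 tags at chr17:65459753-65459929. TBX3, a T-box repressor, had 7 regions, the strongest with 10.5 and 11.4 tags at chr12:114995960-114996190. Of these 4 regions the second at CTNNB1 differed most between the libraries.

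Immediate early genes had 7 of 18 bordering members (38.9%) with a far region, 12 regions in all with medians of 5.7 and 8.78 tags. IER3, a stress-inducible survival gene, had the strongest at chr6:30811012-30811203 with 17.1 and 21.4 tags. DUSP5, a phosphatase of ERK, had 9.51 and 17 tags at chr10:110417361-110417559, and ETS2, an ETS family factor, 7.61 and 13.6 at chr21:38965881-38966115 and 7.61 and 8.78 at chr21:38990557-38990733. Growth factors and receptors had 8 of 22 (36.4%), with 12 regions and medians of 6.42 and 10.4 tags. Among these, IRS1, the insulin receptor substrate, had 12.8 and 19.4 tags at chr2:226478457-226478633. FGFR1, a fibroblast growth factor receptor, had 9.03 and 18.4 tags at chr8:38564818-38564994 and 12.4 and 13.6 at chr8:38528090-38528308, and AREG, an EGF receptor ligand, 8.56 and 15.4 at chr4:74541697-74541873. In the MYC network, MYC itself had 5 regions and MYCN 1, out of 3 bordering genes. The strongest near MYC, chr8:128076976-128077227 inside the lncRNA gene PVT1, had 9.98 and 10.4 tags, and the others had 5.7 to 7.61 tags in replicate 1. Of 13 bordering genes typical of blood, fibroblasts, neurons, muscle or liver, 1 (7.69%), RUNX1, had a far region, with 4.75 and 5.59 tags. The peak lists hold no expression values, so the cell type was not checked by expressed markers.

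Whether ATF4 was found at these regions was compared between activated and control cells. An ATF4 peak overlapped 9 and 14 of the 716 far regions in activated replicates 1 and 2 (1.26% and 1.96%), against 4 and 3 in control replicates 1 and 2 (0.559% and 0.419%). The means were 1.61 ± 0.494% in activated and 0.489 ± 0.0988% in control cells (SD, n = 2 each). Both activated libraries lay above both control libraries. The two-sided exact permutation test gave p = 0.33, the smallest that 2 against 2 libraries allow. Over all 6313 reproducible MYC regions the shares were 1.12% and 1.57% in activated and 0.539% and 0.634% in control cells. The control lists were shorter as a whole: the ATF4 lists held 1270 and 2231 peaks in activated and 916 and 1579 in control replicates 1 and 2. The ATF4 libraries differed in depth (24.95 and 49.77 M tags in activated, 22.4 and 50.3 M in control), in window width (170 and 204 bp in activated, 184 and 212 bp in control) and in the weakest listed peak (3.21 and 2.81 tags in activated, 4.46 and 2.98 in control). The part of these differences was not tested.

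In all, 17 far regions had an ATF4 peak in at least 1 library, and 6 (0.838%, interval 0.308 to 1.81%) in both activated libraries. The strongest lay 260292 bp from KLF4 inside the lncRNA gene LOC105376208 (chr9:107749944-107750177). Activated replicates 1 and 2 had 14.4 and 16.9 ATF4 tags there, and control replicates 1 and 2 had 14.7 and 8.15. The groups overlapped at this region. Its MYC tags were 6.65 and 20.4, a wide gap between the 2 MYC libraries. Near BTC, an EGF receptor ligand (chr4:74654280-74654551), ATF4 tags were 6.41 and 7.84 in activated and 5.36 and 5.37 in control cells. Near F3, the clotting starter tissue factor (chr1:94657908-94658084), they were 6.41 and 7.23 in activated and 5.36 and 5.17 in control cells. The folds over background near F3 were only 2.52 and 2.61 in activated and 2.11 and 1.72 in control cells. Higher activated values were general and not particular to these regions. Over the 105 regions with a peak in every ATF4 library the median log2 change was 0.54, above 0.35 near BTC and 0.32 near F3.

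The other three had an ATF4 peak in neither control library. They were a region of the SLC45A1 group (chr1:8212060-8212304) with 6.41 and 11.5 ATF4 tags in activated replicates 1 and 2, a region near SOX1, a neural transcription factor (chr13:111954927-111955225), with 5.21 and 8.44, and the strong MYC region near HAS2 (chr8:121348715-121348906) with 4.41 and 5.83. The HAS2 value in activated replicate 1 was below the weakest listed peak of control replicate 1 (4.46 tags). The list of control replicate 2 goes down to 2.98 tags. A region without a listed peak has no value in that library, so the part of these limits was not tested. MYC tags at the SLC45A1 and SOX1 regions were 9.51 and 22.4, and 7.13 and 10.8. No far region had an ATF4 peak in both control libraries without one in both activated libraries.

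ATF4 tags were then tested by limma at the 105 regions where every ATF4 library had a peak. Only 3 far MYC regions were among them, since a region without a peak in 1 library has no value there. The log2 change on the log2(tags + 1) scale was 0.47 near KLF4 (standard error 0.29, limma adjusted p = 0.174), 0.35 near BTC (0.24, adjusted p = 0.216) and 0.32 near F3 (0.23, adjusted p = 0.231). None of the 3 passed, also at an unadjusted p under 0.05. Among all 105 common regions 37.1% were called higher and 0 lower, with a median log2 change of 0.54. Centring each library on its median turned the 3 changes to -0.17, -0.30 and -0.33, while the median of all 105 was -0.11 after centring and 0.54 before it. Centring lowers every region's change by the same amount. The part of library scaling in the rise shared by the 105 regions was not tested.

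**Figure D5:**
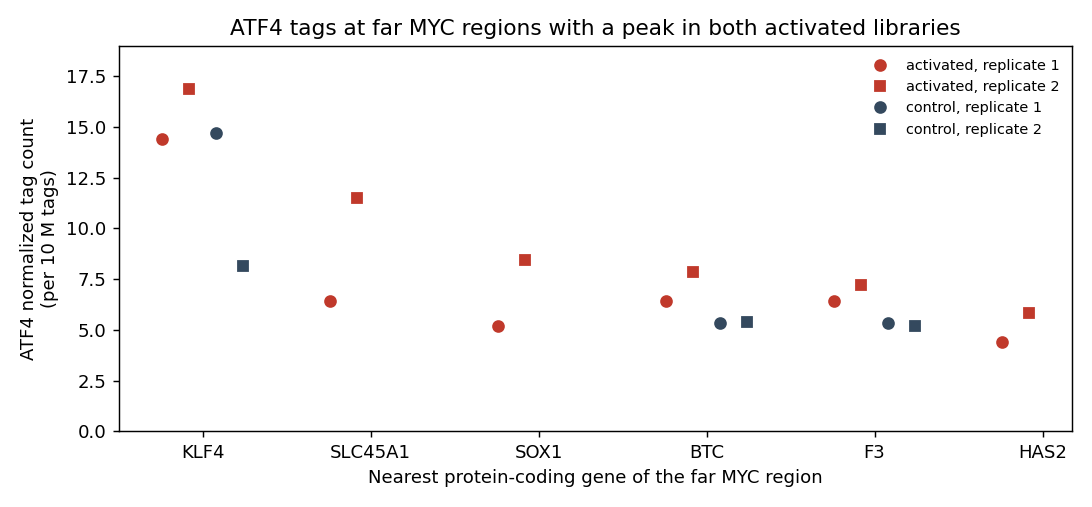
ATF4 normalized tag counts (per 10 M tags) at the 6 far MYC regions with an ATF4 peak in both activated libraries, named by their nearest protein-coding gene, with activated libraries in red left of control libraries in dark blue (circles replicate 1, squares replicate 2). A missing point means that no peak was listed; control points are present near KLF4, BTC and F3.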

How the data were processed

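The data are 6 deposited peak lists, 1 for each ATF4 and MYC library, so replicates were not pooled before calling. Per the submitters' processing notes, Bowtie 0.12.9, HOMER and hg38 were used, with no settings given. The value used most is the authors' normalized tag count, a signal scaled to 10 M tags per the file headers. The deposited lists also give a score, a focus ratio (a fraction), total tags as a count in replicate 1, fold over background and over surroundings, and p-values. Every MYC peak had a fold of at least 4 over its surroundings and a p-value over background under 0.05.

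Peaks were merged (1 bp overlap), and gene spans and lncRNA starts came from RefSeq tables (GRCh38.p14). The step between neighbouring low tag counts gave each library's depth. Members and gene lists were chosen with earlier results of these data known. Named regions were the 10 strongest by mean rank over both MYC libraries, the 5 farthest, 3 on each side of the limit, those with ATF4 in both libraries of a condition, the 6 largest groups, up to 4 per gene list and up to 10 at lncRNA starts; others are marked. ATF4 tags were compared at 105 common regions with limma 3.58.1 in R 4.3.3 (trend, log2(tag + 1), Benjamini-Hochberg adjustment, threshold 0.05), tested on simulated data. A count test was planned only if every ATF4 list held whole counts; the replicate 2 lists give total tags scaled down to fractions, so it was not run. Shares have exact 95% intervals (SciPy 1.17.1). Alternatives were distance, fold, overlap, annotation, pseudocount, centring, low-value filter, replicate block and leaving out libraries.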

Additional observations from a re-analysis of the deposited data

How the results depend on the processing

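The number of far regions followed the rule. It was 1147 (18.2% of reproducible regions) beyond 20 kb, 419 (6.64%) beyond 100 kb and 83 (1.31%) when genes of every type were counted. Leaving out a MYC library, so that the remaining one defined the regions alone, gave 2812 regions (12.5%) without replicate 1 and 1226 regions (14.2%) without replicate 2. A 4-fold minimum over background left 643, a minimum overlap of 50% of the shorter peak 655, and leaving out chromosome 8, chosen after seeing the data, 641. The ratio of far to gene-end median tags, 0.918 as the mean of both libraries, was 0.852 to 0.918 with 1 MYC library left out. The share of far regions with ATF4 in both activated libraries was 0.571 to 0.676% with 1 MYC library left out. With 1 activated ATF4 library left out, the share with a peak in the remaining one was 1.96% (without replicate 1) and 1.26% (without replicate 2), a looser measure. It was 0.559% with centres within 100 bp and 0.698% with 4-fold ATF4 peaks.

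Leaving out any ATF4 library left 0 of 3 far regions and 0 of 105 common regions called (smallest limma adjusted p 0.0623 without activated replicate 1, 0.141 without activated replicate 2, 0.0872 without control replicate 1, 0.164 without control replicate 2), where the lone library takes the spread of the other condition. The KLF4 change was 0.86 without control replicate 1 and 0.08 without control replicate 2. Centring, which lowers the change of every region by the same amount, gave negative changes near KLF4 (-0.17), BTC (-0.30) and F3 (-0.33), with 0 called higher and 9 lower among all 105. With a replicate block 0 of 3 and 0 of 105 passed (smallest adjusted p 0.115). Same-numbered ATF4 libraries deviated together only weakly (correlation 0.0976 over the 105 regions with a peak in every ATF4 library). They were nevertheless alike in depth, with 24.95 and 22.4 M tags in replicate 1 and 49.77 and 50.3 M in replicate 2. Their shares of peaks on chromosome 8 were also closer by number than by condition. The main fit did not treat the numbers as pairs, and the correlation cannot decide whether they mark pairs. Depth limits weak regions of replicate 1, where the weakest MYC peak rests on 8 reads.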
